A study of Mus musculus with 13 samples.

Results

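The genes described here load and control the replicative helicase: the 6 subunits of the MCM2-7 helicase (Mcm2, Mcm3, Mcm4, Mcm5, Mcm6 and Mcm7), the loading factors Cdc6 and Cdt1, the Cdt1 inhibitor geminin (Gmnn) and the sliding clamp Pcna. They are 10 genes listed by symbol from what is known of replication licensing, with no measured value in the rule, out of 22406 gene symbols in the deposited tables. All 10 were found in the tables of both cell systems.

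The study asked how the kinase PERK, encoded by Eif2ak3, shapes early and late gene expression under stress of the endoplasmic reticulum (ER). Ribosome footprints, the mRNA stretches that translating ribosomes protect from nuclease, were sequenced from 13 libraries. Mouse embryonic fibroblasts (MEFs) that were PERK WT or PERK -/- were left untreated or treated for 1, 2, 5 or 8 h with 1 uM thapsigargin (Tg), which blocks the calcium pump of the ER, and gave 5 libraries per genotype. NIH3T3 cells, an established mouse fibroblast line, were left untreated or treated with 200 nM Tg for 2 or 7 h and gave 3 libraries. Each condition was 1 library, so no value below has a replicate to check it, and the intervals given cover counting error alone. The treated libraries of a cell system share 1 control, so any error in a control enters every comparison made with it.

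Library sizes differed. In WT MEFs the total expected counts (reads assigned to genes by RSEM) were 11949174 in the control and 3609292, 2525029, 5617552 and 11178364 after 1, 2, 5 and 8 h. The PERK -/- libraries held 6735073, 10011722, 14799515, 8035736 and 7446112 in the same order, and the NIH3T3 libraries held 11121006 when untreated, 2569965 at 2 h and 5756011 at 7 h. The thinnest count of any of the 10 genes was 79, for Gmnn in NIH3T3 cells at 2 h, and the highest was 10071, for Pcna in PERK -/- MEFs at 2 h. Levels are in TPM, the deposited length-corrected unit, computed by the authors over coding sequence, so that genes can be compared with each other. A TPM value is a share of its library: a change is relative to all other genes, and a change in mRNA level and a change in translation cannot be told apart. The cells were measured in bulk, so fewer cells that express a gene and fewer footprints per cell cannot be told apart either.

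Licensing happens in G1 phase, when the origin recognition complex and Cdc6 recruit Cdt1 bound to the MCM2-7 ring, and the ring is loaded around DNA as an inactive pair. Geminin, present in S phase and G2 and destroyed by the anaphase-promoting complex, binds Cdt1 and keeps origins from being licensed again, while the Cul4 ubiquitin ligase destroys Cdt1 that is bound to Pcna on chromatin. Pcna encircles DNA behind the fork and tethers the polymerases, and many of these genes are transcribed under the control of E2F factors.

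The labels were first set against marker genes. The 6 fibroblast markers (Col1a1, Col1a2, Vim, Thy1, Pdgfrb, S100a4) summed to between 4534 and 8675 TPM in the 13 libraries. The epithelial markers (Epcam, Cdh1, Krt8, Krt18) summed to between 5.16 and 17.7 TPM, the endothelial markers (Pecam1, Cdh5, Kdr) to between 1.41 and 5.14 TPM, and the leukocyte markers (Ptprc, Cd68, Cd3e) to between 0 and 4.49 TPM. The fibroblast sums rest mostly on Vim, S100a4 and the collagens: in NIH3T3 cells Pdgfrb was at 2.27 to 5.36 TPM, below the epithelial marker Krt8 at 9.36 to 15.6 TPM. The proliferation markers Mki67 and Top2a summed to 225 TPM in untreated WT MEFs, 198 in untreated PERK -/- MEFs and 154 in untreated NIH3T3 cells, so cycling-cell transcripts were translated in all 3.

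Eif2ak3 was counted in every library, the knockout included. In WT MEFs it stood at 6.03 TPM in the control and 8.49, 6.20, 14.0 and 15.7 after 1, 2, 5 and 8 h. In PERK -/- MEFs it stood at 11.2, 7.32, 5.21, 14.9 and 17.2 TPM, from 74, 90, 113, 106 and 142 counts. As counts scaled to library totals (CPM), PERK -/- MEFs had 10.99 in the control and 8.99, 7.64, 13.2 and 19.1 after Tg, at each time below the 21.3, 14.4, 19.01, 33.3 and 32.7 of WT MEFs. NIH3T3 cells had 10.8 TPM when untreated, 6.27 at 2 h and 26.8 at 7 h. A value over the whole gene does not show which exons the footprints came from, so the Eif2ak3 level, lower in PERK -/- MEFs in CPM but not throughout in TPM, does not show the deletion.

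The 10 genes lie on 8 chromosomes of GRCm38, the assembly also known as mm10. Mcm3 (chr1:20802968-20820312) and Mcm6 (chr1:128331590-128359664) are on the same chromosome, as are Mcm5 (chr8:75109569-75128439) and Cdt1 (chr8:122568015-122573554). The others are Mcm2 (chr6:88883474-88898780), Mcm4 (chr16:15623897-15637400), Mcm7 (chr5:138164583-138172422), Cdc6 (chr11:98907801-98923940), Gmnn (chr13:24751845-24761923) and Pcna (chr2:132249162-132253314). All footprint values are over coding exons. Mcm2 has 16 of them with 2712 nt of coding sequence, Cdt1 has 10 with 1671 nt, and Gmnn, the shortest, has 6 with 618 nt.

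Because several of the genes moved together in WT MEFs, the 250 bases before the start of each were searched for short motifs of factors known for replication genes or for ER stress. RefSeq promoters of build GRCm38.p6 were at hand for 8 of the 10 genes, with 2 entries for Mcm7; Mcm4 and Gmnn had none. E2F motifs were searched as the words TTTCCCGC, TTTCGCGC, TTTGCCGC and TTTGGCGC on both strands, and at least 1 was present in 4 of the 8 genes (Cdc6, Mcm5, Mcm6 and Mcm7), against 1.86% of 32851 promoters. The CCAAT box was present in 6 of the 8 (Mcm2, Mcm3, Mcm5, Mcm6, Mcm7 and Pcna), against 33.8% of all. TGATGNAA, the core of the C/EBP-ATF element bound by stress factors such as ATF4 and CHOP, was in none of the 8, against 3.45% of all, and neither was the ER stress element ERSE (0.113% of all). A match is a stretch of letters and not a shown binding site, and the lack of one speaks only of this window.

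The sequences below run in the direction of each gene and end at the base before its start in RefSeq, with the E2F words in capitals. The RefSeq start of Mcm5, Mcm6, Mcm7 and Cdc6 is not the end of the gene given above from GENCODE, and the windows of Mcm7 and Cdc6 lie within the GENCODE gene. Mcm5 (chr8:75109259-75109508, plus strand), Mcm6 (chr1:128359706-128359955, minus strand), Mcm7 (chr5:138171884-138172133, minus strand) and Cdc6 (chr11:98907901-98908150, plus strand) are shown because they hold such a word. Mcm2 (chr6:88898781-88899030, minus strand) and Cdt1 (chr8:122567765-122568014, plus strand) are shown for contrast: they gave the highest changes in WT MEFs at 8 h among the subunits and among all 10, and they hold none. In Mcm6 and in Mcm5 a word on the gene's strand overlaps a word on the other strand, which joins them into 1 longer run of capitals.
Mcm5: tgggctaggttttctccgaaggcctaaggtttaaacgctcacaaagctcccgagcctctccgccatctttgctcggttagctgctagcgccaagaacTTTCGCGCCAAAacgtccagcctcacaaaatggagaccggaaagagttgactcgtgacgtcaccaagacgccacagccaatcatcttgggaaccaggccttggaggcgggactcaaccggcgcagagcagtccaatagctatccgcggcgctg
Mcm6: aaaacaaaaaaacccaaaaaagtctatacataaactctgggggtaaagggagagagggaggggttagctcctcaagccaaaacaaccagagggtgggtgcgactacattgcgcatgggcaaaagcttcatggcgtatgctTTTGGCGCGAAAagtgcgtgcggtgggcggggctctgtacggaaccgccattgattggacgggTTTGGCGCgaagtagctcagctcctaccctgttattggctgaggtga
Mcm7: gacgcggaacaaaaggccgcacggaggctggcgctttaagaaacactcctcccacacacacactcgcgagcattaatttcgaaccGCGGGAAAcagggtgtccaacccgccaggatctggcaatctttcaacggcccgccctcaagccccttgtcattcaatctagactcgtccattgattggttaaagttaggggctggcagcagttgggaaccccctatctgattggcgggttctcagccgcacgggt
Cdc6: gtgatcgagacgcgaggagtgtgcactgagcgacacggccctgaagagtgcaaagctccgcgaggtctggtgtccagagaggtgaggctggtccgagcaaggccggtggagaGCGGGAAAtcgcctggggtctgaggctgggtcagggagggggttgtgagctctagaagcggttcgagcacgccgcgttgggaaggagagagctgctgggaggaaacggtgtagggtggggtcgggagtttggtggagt
Mcm2: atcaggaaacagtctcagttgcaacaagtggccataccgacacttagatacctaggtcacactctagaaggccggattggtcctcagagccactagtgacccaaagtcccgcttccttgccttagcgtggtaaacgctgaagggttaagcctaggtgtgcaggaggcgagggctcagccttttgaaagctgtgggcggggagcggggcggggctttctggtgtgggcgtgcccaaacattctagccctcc
Cdt1: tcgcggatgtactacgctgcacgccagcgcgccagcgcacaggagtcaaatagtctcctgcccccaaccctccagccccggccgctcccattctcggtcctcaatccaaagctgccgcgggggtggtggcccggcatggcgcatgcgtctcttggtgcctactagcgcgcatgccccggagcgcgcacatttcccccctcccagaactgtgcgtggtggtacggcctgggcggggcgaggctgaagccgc

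In untreated cells the 6 helicase subunits were translated at like levels. Untreated WT MEFs had 129 TPM of Mcm2, 159 of Mcm3, 133 of Mcm4, 105 of Mcm5, 114 of Mcm6 and 168 of Mcm7, so that the highest was 1.60 times the lowest. This ratio was 1.40 in untreated PERK -/- MEFs and 1.45 in untreated NIH3T3 cells, where Mcm3 was highest at 141 TPM and Mcm4 lowest at 97.5. The subunits assemble into the ring in equal numbers. After Tg the ratio was 1.64 at 1 h, 1.89 at 2 h and 1.87 at 5 and 8 h in WT MEFs, between 1.36 and 1.63 in PERK -/- MEFs, and 1.53 and 1.52 in NIH3T3 cells.

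Before any treatment the genotypes differed, in counts per library total, in few of the 10 genes by more than a small margin. Mcm6 was at 114 TPM in WT and 151 in PERK -/- MEFs, a log2 ratio of 0.40 (95% interval 0.33 to 0.47, counts). Cdt1 was at 27.4 and 33.9 TPM, a log2 ratio of 0.31 (0.12 to 0.50), and the other 8 genes lay between -0.091 and 0.11. TMM factors were 0.933 in the WT control and 1.04 in the PERK -/- control. They would lower every one of these ratios, so which genes differ depends on the scaling.

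Among the subunits Mcm2 gave the clearest split between cells. In WT MEFs it was at 129 TPM in the control and 168, 197, 215 and 225 after 1, 2, 5 and 8 h. The PERK -/- libraries had 138, 130.03, 117, 132 and 129 TPM, and the NIH3T3 cells 109 when untreated, 85.1 at 2 h and 97.2 at 7 h. Every treated WT library was above the WT control, and every treated PERK -/- or NIH3T3 library was below its own, although under TMM and DESeq2 scaling PERK -/- MEFs at 1 h came out above.

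Mcm5, which sits beside Mcm2 at the gate through which DNA enters the ring, was also above its control in every treated WT library. It had 105 TPM in the WT control and 148, 167, 164 and 166 after 1, 2, 5 and 8 h. Unlike Mcm2, it stayed level from 2 h on. PERK -/- MEFs had 113, 117, 108, 122 and 119 TPM. NIH3T3 cells had 119 TPM when untreated, 105 at 2 h and 104 at 7 h. The treated WT libraries lay above all other libraries in Mcm5, and the PERK -/- values stayed within a narrow band on either side of their control.

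Mcm7 was at 168 TPM in the WT control and 202, 232, 237 and 242 at 1, 2, 5 and 8 h. Its PERK -/- values were 158, 168, 164, 166 and 182 TPM, and its NIH3T3 values 123, 129.9 and 122 TPM. In both genotypes each treated library was above its control, by less in PERK -/- MEFs except with TMM factors at 1 h.

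Mcm3 was at 159 TPM in the WT control and 189, 205, 189.5 and 195 in the treated libraries. PERK -/- MEFs had 152 TPM of it when untreated, then 145, 142, 128 and 138. In NIH3T3 cells it was at 141 TPM, then 125 and 120.2. As with Mcm2, the treated libraries were above the control in WT MEFs and below it in the other cells, except that PERK -/- MEFs at 1 and 2 h came out above under TMM and DESeq2 scaling.

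Mcm4 and Mcm6 form, with Mcm7, a part of the ring with helicase activity of its own. Mcm4 was at 133 TPM in the WT control and between 148 and 166 after Tg, and at 132 TPM in the PERK -/- control and between 147 and 158 after Tg. Mcm6 was at 114 TPM in the WT control and between 123 and 129 after Tg, and at 151 TPM in the PERK -/- control and between 148 and 175 after Tg. In NIH3T3 cells Mcm4 stayed between 97.5 and 101 TPM, while Mcm6 was at 108 TPM when untreated, 84.7 at 2 h and 79.8 at 7 h. Mcm4 was above its control in all 10 treated libraries, although in NIH3T3 cells at 7 h it came out below when counts were thinned to the smallest library. Mcm6 was below its control in NIH3T3 cells and, by a margin whose sign turned under 2 scalings, in PERK -/- MEFs at 5 h.

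**Figure D1:**
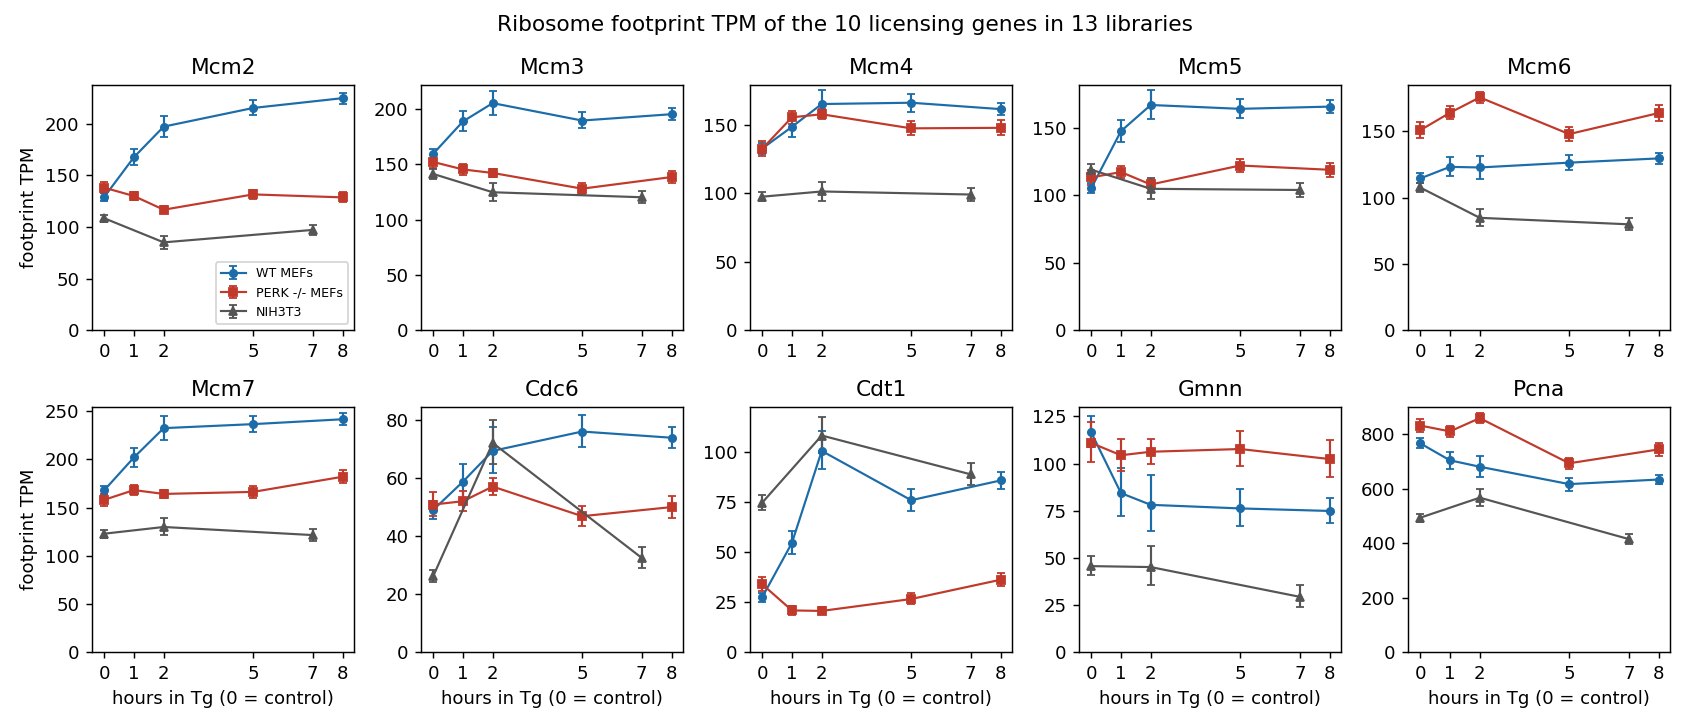
Footprint level (TPM, vertical axis) of each of the 10 genes against hours in Tg (horizontal axis, 0 is the control) in WT MEFs, PERK -/- MEFs and NIH3T3 cells, 1 library per point. Bars are 95% counting intervals; Mcm2 climbs from 129 to 225 TPM in WT MEFs and stays between 117 and 138 in PERK -/- MEFs.

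Cdt1 varied more than any other of the 10 genes. In WT MEFs it was at 27.4 TPM in the control and 54.5, 100.4, 75.8 and 85.7 after 1, 2, 5 and 8 h. In PERK -/- MEFs it was at 33.9 TPM in the control and 20.9, 20.6, 26.5 and 36.15 after 1, 2, 5 and 8 h. NIH3T3 cells, with 74.5 TPM in the control, had 108 at 2 h and 88.7 at 7 h. All 4 treated WT libraries lay above every PERK -/- library in Cdt1, and untreated NIH3T3 cells already had a level near that of treated WT MEFs.

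Cdc6, the ATPase that brings Cdt1 and MCM2-7 to the origin, was at 48.9 TPM in the WT control and 58.6, 69.2, 75.9 and 73.8 at 1, 2, 5 and 8 h. PERK -/- MEFs had 50.8 TPM untreated, then 51.9, 57.0, 46.8 and 49.9. In NIH3T3 cells it was at 26.1 TPM when untreated, 72.0 at 2 h and 32.4 at 7 h. The NIH3T3 value at 2 h stood apart from the control and from 7 h, and in MEFs every treated WT library lay above every PERK -/- library in TPM, though in counts per library total WT at 1 h was below PERK -/- at 2 h.

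Geminin went the other way. It was at 117 TPM in the WT control and 84.4, 78.1, 76.2 and 74.9 at 1, 2, 5 and 8 h, from 482 counts at 8 h and 114 at 2 h. It stayed in PERK -/- MEFs between 102 and 111 TPM in all 5 libraries. NIH3T3 cells had 45.7 TPM when untreated, 45.15 at 2 h and 29.4 at 7 h. The treated WT libraries all lay below every PERK -/- library in Gmnn.

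The balance of inhibitor to loading factor therefore differed between the cells. In WT MEFs the ratio of Gmnn to Cdt1 in TPM was 4.26 in the control and 1.55, 0.778, 1.01 and 0.874 after 1, 2, 5 and 8 h. For PERK -/- MEFs it was 3.27 in the control and 5.01, 5.16, 4.06 and 2.83 after 1, 2, 5 and 8 h. In NIH3T3 cells it was 0.613, 0.418 and 0.331. This is a ratio of relative synthesis: the proteins, which are also degraded through the cell cycle, were not measured. Gmnn has the lowest coding GC content of the genes described here (46.1%) and Cdt1 the highest (62.5%). In PERK -/- MEFs at 2 h Gmnn had a log2 change of -0.06 and Cdt1 of -0.72. With a GC trend removed these were -0.24 and -0.40. The rise of the ratio without PERK was then smaller at 1, 2 and 5 h. In WT MEFs at 2 h the changes were then -0.40 and 1.54, so the ratio still fell.

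Pcna was the most translated of the 10 genes in all 13 libraries. It was at 766 TPM in the WT control and 704, 680.3, 617 and 633 at 1, 2, 5 and 8 h, and at 831 TPM in the PERK -/- control and 809.95, 859, 693 and 744 after Tg. NIH3T3 cells had 493, 567 and 415 TPM. The level of Pcna relative to the mean of the 6 subunits was 5.69 in the WT control and 3.40 at 8 h, against 5.91 and 5.07 in PERK -/- MEFs.

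The first set of comparisons asked what Tg does in MEFs that have PERK. Each treated WT library was compared with the WT control as a log2 ratio of TPM, with TPM values under 4 raised to 4, over the 10432 genes whose TPM averaged 2 or more in the MEF libraries (expressed genes). The helicase subunits were above the control at every time: their median log2 change was 0.26 at 1 h, 0.42 at 2 h and 0.41 at 5 and 8 h, while the median of all expressed genes was 0 at 1 and 2 h, 0.00084 at 5 h and 0.0092 at 8 h. The subunits stood 0.19, 0.34, 0.32 and 0.31 above the median of all expressed genes with TMM factors. The 95% counting interval, in counts per library total, lay above 0 for 8 of the 10 genes at each time (the 6 subunits, Cdc6 and Cdt1), where 28.4%, 28.6%, 35.4% and 40.4% of expressed genes did after 1, 2, 5 and 8 h. It lay below 0 for 2 (Gmnn and Pcna), a share near that of expressed genes (23.3%, 22.2%, 26.6% and 29%). An interval leaves 0 more readily in a gene with many counts, and these shares are not matched for depth. The 10 genes had at least 114 counts in each MEF library, while 4136 of the 10432 expressed genes had at least 100 in each. The same limit applies to the interval shares given below. In a check chosen after seeing the data, the number above 0 was 6, 7, 7 and 8 with TMM factors and 7, 7, 7 and 8 with DESeq2 factors. The shares of expressed genes above 0 were then 22.8%, 24.2%, 29.9% and 34.7% with TMM and 25.9%, 25.1%, 29.9% and 34% with DESeq2 factors. Mcm6 spanned 0 at 1, 2 and 5 h with both, and TMM factors left Mcm4 spanning 0 at 1 h. None of these signs turned under any other setting that was tried, although Pcna came to -0.0062 at 1 h with a GC trend removed.

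At 1 h in WT MEFs, no member was up at least 2-fold (4.33% of expressed genes were) and none was down 2-fold (2.29% were). Cdt1 alone was up at least 1.5-fold (12.8% of expressed genes), and none was down as far (10.2%). Its log2 change was 0.99 from TPM, and 1.01 (0.81 to 1.21) from counts per library total, a scaling under which it passed 2-fold. It ranked 457 of 10432.

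At 2 h Cdt1 was up at least 2-fold (5.66% of expressed genes) with a log2 change of 1.88, which ranked 82 from the top, and no member was down 2-fold (4.01%). Cdt1, Mcm2 and Mcm5 were up at least 1.5-fold (15.3%), and no member was down 1.5-fold (12.3%). Mcm5 had a log2 change of 0.67 and Mcm2 of 0.61, and Gmnn of -0.58. With TMM or DESeq2 factors Mcm2 was short of 1.5-fold and Gmnn was past it, and with the GC trend removed Cdt1 alone was past it.

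At 5 h 1 member, Cdt1 at 1.47, was up 2-fold (5.86% of expressed genes) and none was down (3.55%). Cdt1, Mcm2, Mcm5 and Cdc6 were up 1.5-fold, 4 of 10 where 16.7% of expressed genes were, and Gmnn was down 1.5-fold (11.6%). At 8 h the same genes passed the same folds: Cdt1 at 1.65 was up 2-fold (6.45%) and no member was down (3.87%), while 4 members were up 1.5-fold (17.8%) and 1 was down (12%). Mcm2 had 0.80 at 8 h, Cdc6 0.59, Mcm5 0.66 and Gmnn -0.64. With TMM or DESeq2 factors Mcm5 and Cdc6 were short of 1.5-fold at 5 and 8 h, which leaves 2 of 10 up (Cdt1 and Mcm2). With the GC trend removed Mcm2, Mcm5 and Gmnn were short of it at both times, and Gmnn also with thinned counts.

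Between neighbouring times in WT MEFs, the counting interval of the change left 0 for 6 of the 10 genes from 1 to 2 h (28.5% of expressed genes), for 4 from 2 to 5 h (20%) and for 2 from 5 to 8 h (10.5%). With DESeq2 factors these were 5, 4 and 1. Cdt1 was among them each time, with log2 steps of 0.87, -0.41 and 0.18. In PERK -/- MEFs the interval left 0 for 6, 8 and 4 of the 10 genes in the same order, where 44%, 70.2% and 59.1% of expressed genes did. With TMM or DESeq2 factors it spanned 0 there for 5, 3 and 6. Cdt1 in PERK -/- MEFs had steps of 0.32 from 2 to 5 h, where the interval spanned 0 with TMM factors, and 0.40 from 5 to 8 h. In WT MEFs the median of the subunits stayed level from 2 h on, while Mcm2 went on to 8 h in steps of 0.12 (0.03 to 0.21) and 0.07 (0.01 to 0.12), the last spanning 0 with TMM or DESeq2 factors.

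**Figure D2:**
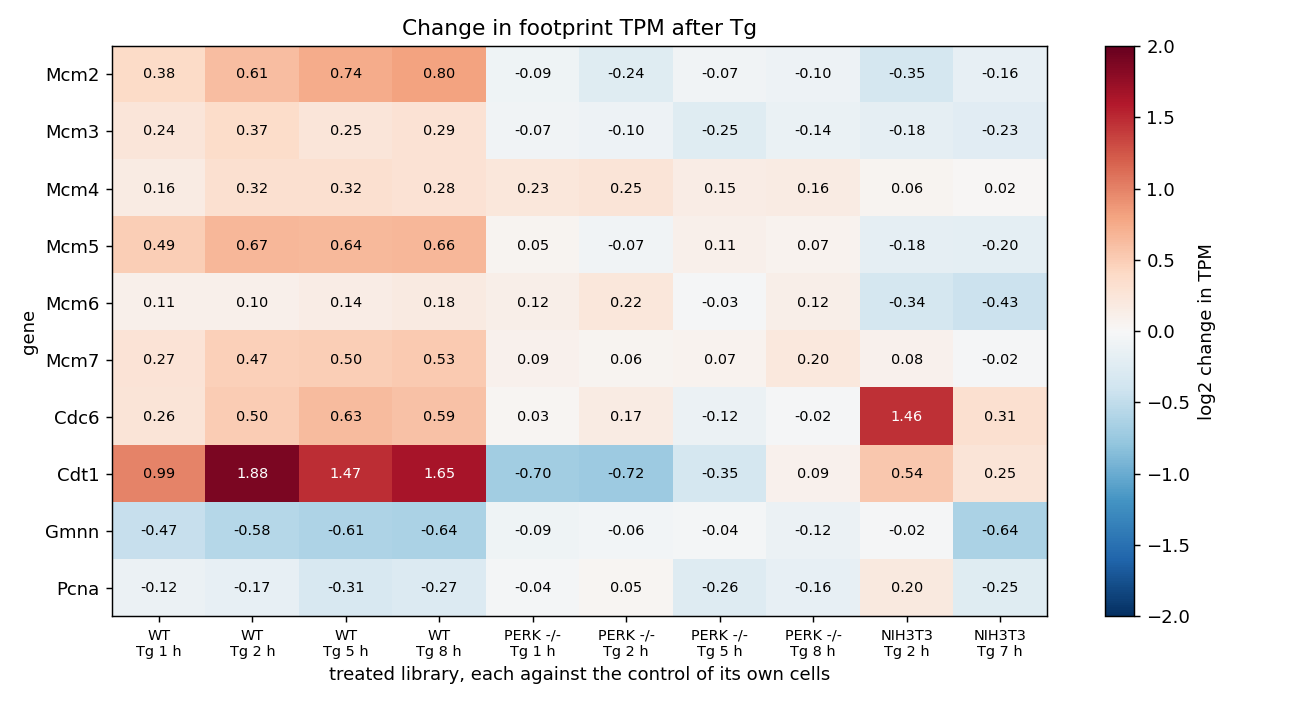
Log2 change in TPM of each of the 10 genes (vertical axis) in each treated library (horizontal axis) against the control of the same cells, with the value in each cell of the map. Cdt1 ranges from -0.72 in PERK -/- MEFs at 2 h to 1.88 in WT MEFs at 2 h; the signs of 4, 3, 1 and 2 genes in PERK -/- MEFs at 1, 2, 5 and 8 h and of 1 gene at each NIH3T3 time turn under another scaling.

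The second set asked the same of MEFs without PERK. The median log2 change of the 6 subunits was 0.07, -0.01, 0.02 and 0.09 after 1, 2, 5 and 8 h, beside -0.06, -0.11, 0 and 0.04 for all expressed genes, and at 2 h it was above 0 with counts per library total, TMM or DESeq2 factors. Relative to all expressed genes the subunits stood 0.13, 0.10, 0.02 and 0.05 higher, but 0.21, 0.21, 0.04 and 0.00063 with TMM factors and 0.18, 0.19, 0.05 and 0.01 with DESeq2 factors. No member was up or down at least 2-fold at any time. The matching shares of expressed genes at the 4 times in turn were 0.719%, 0.623%, 3.26% and 3.28% up, and 3.38%, 5.78%, 4.77% and 2.73% down.

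No member was up at least 1.5-fold in PERK -/- MEFs either, where 3.78%, 3.57%, 10.6% and 12.5% of expressed genes were. Cdt1 was down 1.5-fold at 1 and 2 h, with log2 changes of -0.70 and -0.72, where 13.4% and 18.8% of expressed genes were down as far. It was short of that fold with TMM factors or the GC trend removed at both times, and with DESeq2 factors at 2 h. No member was at 5 or 8 h (12.8% and 8.24%), although thinned counts put Cdt1 past it at 5 h. By 5 h Cdt1 was at -0.35. By 8 h it was at 0.09, where the counting interval spans 0 and the sign turned with TMM factors.

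The counting interval left 0 for 4, 7, 6 and 6 of the 10 genes in PERK -/- MEFs at 1, 2, 5 and 8 h, shares not far from the 53.7%, 61.1%, 59.8% and 54.5% of expressed genes. With TMM or DESeq2 factors it left 0 for 7, 8, 6 and 5. Mcm4 and Mcm7 had intervals above 0 at all 4 times, although Mcm4 at 8 h spanned 0 with TMM or DESeq2 factors, with log2 changes in TPM of 0.23, 0.25, 0.15 and 0.16 for Mcm4 and 0.09, 0.06, 0.07 and 0.20 for Mcm7. Mcm3 had intervals below 0 at 5 and 8 h (-0.25 and -0.14 in TPM), as did Pcna (-0.26 and -0.16). Cdt1 had them at 1, 2 and 5 h. Mcm2 had an interval below 0 at 8 h (-0.10 in TPM) and at 2 h (-0.24), the latter spanning 0 with TMM or DESeq2 factors. Gmnn had an interval that spanned 0 at every time, but lay below 0 at 8 h with TMM or DESeq2 factors.

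The third comparison set the genotypes against each other at each time, as the log2 change in PERK -/- minus that in WT MEFs, in counts per library total with a 95% Wald interval from the 4 counts. For Cdt1 this was -1.68 (-1.96 to -1.40) at 1 h, -2.53 (-2.79 to -2.27) at 2 h, -1.79 (-2.05 to -1.53) at 5 h and -1.56 (-1.80 to -1.33) at 8 h. For Mcm2 it was -0.45 (-0.56 to -0.34) at 1 h, -0.79 at 2 h, -0.77 at 5 h and -0.91 (-1.01 to -0.82) at 8 h. With the GC trend removed the Cdt1 and Mcm2 differences were smaller in size at every time and lay outside the intervals given here. At 2 h Cdt1 then changed by -0.40 in PERK -/- MEFs and by 1.54 in WT MEFs. With TMM or DESeq2 factors the Mcm2 difference was smaller in size mainly at 1 and 2 h. Gmnn gave 0.40 (0.10 to 0.69), 0.58, 0.61 and 0.51 (0.26 to 0.77).

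In that comparison the interval lay below 0 for 6, 6, 8 and 7 of the 10 genes at 1, 2, 5 and 8 h, where 33.3%, 35.9%, 32.7% and 30.6% of expressed genes did, and above 0 for 2, 3, 1 and 2 (21.6%, 21.9%, 25.9% and 27.4%). With TMM factors 3, 5, 6 and 7 lay below 0 (24.3%, 26.9%, 29.6% and 30.3% of expressed genes) and 4, 4, 2 and 2 above (31%, 30.5%, 29% and 27.9%). With DESeq2 factors 4, 5, 6 and 7 lay below (27.4%, 28.6%, 29.3% and 29.3%) and 4, 4, 2 and 2 above (27.4%, 28.6%, 29.5% and 28.9%). Mcm2, Mcm5 and Cdt1 were below 0 at every time under each of these scalings. Mcm3, Mcm7 and Cdc6 were below 0 at every time in counts per library total, but with TMM factors all 3 spanned 0 at 1 h and Cdc6 also at 2 h, as did Mcm7 at 1 h and Cdc6 at both times with DESeq2 factors. Gmnn was above 0 at every time under each of these scalings. With a GC trend removed its difference was smaller at every time, and no interval was computed. At 2 h Gmnn then changed by -0.24 without PERK and by -0.40 in WT MEFs. Pcna was above 0 at 1, 2 and 8 h and spanned 0 at 5 h in counts per library total. Its interval at 5 h was above 0 with TMM or DESeq2 factors. The value of Pcna came out below 0 with the GC trend removed. Mcm4 spanned 0 at 1 and 2 h and was at -0.13 and -0.14 at 5 and 8 h, and Mcm6 was above 0 at 2 h and below 0 at 5 h. The value of Mcm6 at 2 h came out below 0 with the GC trend removed or thinned counts, where no interval was computed. With TMM or DESeq2 factors Mcm4 and Mcm6 both lay above 0 at 1 and 2 h and spanned 0 at 5 h. Whether these differences exceed the variation between cultures or clones was not tested, since each genotype is 1 library per time.

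**Figure D3:**
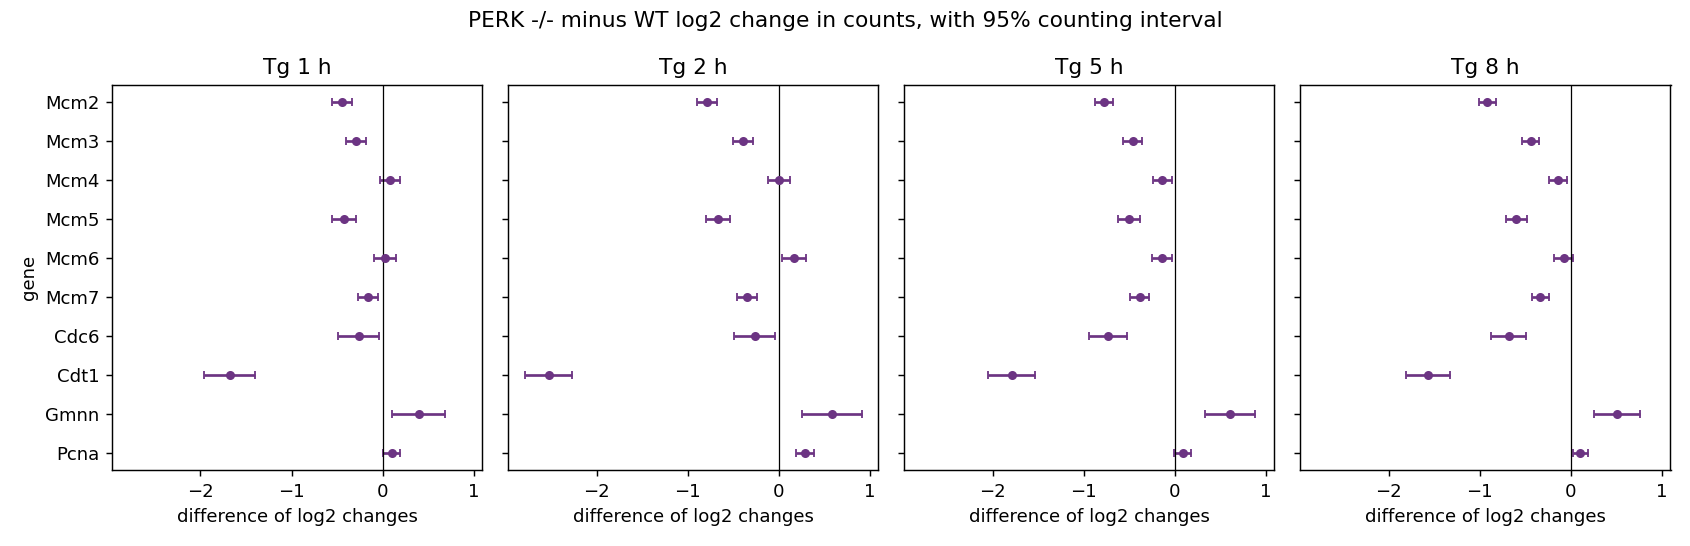
Difference of the log2 change (PERK -/- minus WT, counts per library total, horizontal axis) for each of the 10 genes (vertical axis) at 1, 2, 5 and 8 h of Tg. Bars are 95% counting intervals; Cdt1 lies between -2.53 and -1.56 and Gmnn between 0.40 and 0.61, and with TMM or DESeq2 factors the bars of Mcm7 at 1 h and of Cdc6 at 1 and 2 h span 0.

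In NIH3T3 cells, where the study asked whether its gene expression programs from WT MEFs held, the subunits had a median below that of all expressed genes. The median of the 6 log2 changes was -0.18 at both times, beside -0.13 and 0 for all 10117 expressed genes, so at 2 h they stood -0.05 from the median of all genes and at 7 h -0.18. The distance shrank at 7 h to -0.09 with TMM factors, -0.05 with DESeq2 factors and -0.10 with the GC trend removed. For 2 h it lay between -0.065 with thinned counts and -0.0055 with a floor of 1 TPM, and was at -0.013 with the GC trend removed. At 2 h, 1 member was up at least 2-fold (5.76% of expressed genes), Cdc6 with a log2 change of 1.46 that ranked 245 of 10117, and none was down (3.76%). It was also the sole member up 1.5-fold in TPM (12%), where Cdt1 joined it under each of the 3 other scalings, and none was down 1.5-fold (18.2%).

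Cdt1 in NIH3T3 cells at 2 h had a log2 change of 0.54, from a control level already above that of MEFs. At 7 h no member was up 2-fold (7.01%) or down 2-fold (8.06%), none was up 1.5-fold (16.7%), and Gmnn at -0.64 was down 1.5-fold (20.1%), which it was not with TMM or DESeq2 factors or with thinned counts. The counting interval left 0 for 7 of the 10 genes at both times, where 53.2% and 72.9% of expressed genes did. At 2 h 5 lay above 0 and 2 below under each scaling of the counts, where 24.1% to 25.8% of expressed genes lay above and 26.4% to 29.1% below. At 7 h 1 lay above 0 (Cdt1, 0.25 in both TPM and counts) and 6 below, where 31.7% and 41.2% of expressed genes did. With TMM factors 4 lay above (35.8%) and 5 below (36.4%), and with DESeq2 factors 4 above (37.5%) and 4 below (34.4%), with Mcm4, Mcm7 and Cdc6 joining Cdt1. Mcm6 had the lowest change among the subunits at 7 h, -0.43. Between 2 and 7 h Cdc6 changed by -1.295 (-1.51 to -1.08).

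The proliferation markers moved as well. In NIH3T3 cells Mki67 had a log2 change of -0.79 at 2 h and -1.16 at 7 h, and Top2a of -0.67 and -0.81. In WT MEFs the sum of both went from 225 TPM in the control to 213, 197, 181 and 177 at 1, 2, 5 and 8 h, with a median log2 change of -0.40 at 8 h, while the helicase subunits went up. PERK -/- MEFs had the markers going opposite ways: after 1, 2, 5 and 8 h Mki67 was at -0.13, -0.34, -0.15 and -0.016 and Top2a at 0.18, 0.25, 0.25 and 0.081, the last below 0 with TMM or DESeq2 factors. The part of proliferation in any change of the licensing genes was not tested.

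The licensing genes were then set beside 80 other genes of DNA replication and its control, in 10 lists by symbol. All 80 were expressed in MEFs and 78 in NIH3T3 cells. In WT MEFs 4, 16, 6 and 8 of them were up at least 1.5-fold after 1, 2, 5 and 8 h and 5, 9, 7 and 8 were down. That is 5%, 20%, 7.5% and 10% up, beside 12.8%, 15.3%, 16.7% and 17.8% of all expressed genes, and 6.25%, 11.25%, 8.75% and 10% down, beside 10.2%, 12.3%, 11.6% and 12%. Under the other scalings the numbers up were 1 to 4, 6 to 14, 3 to 6 and 4 to 7, and the numbers down 6 to 10, 8 to 12, 6 to 9 and 7 to 10. Their median log2 change was -0.05, 0.09, 0.02 and -0.04, the values at 2 and 5 h turning below 0 with TMM or DESeq2 factors. These medians lie beside 0.26, 0.42, 0.41 and 0.41 for the helicase subunits.

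For PERK -/- MEFs the numbers were 2, 2, 5 and 4 up and 3, 4, 5 and 4 down, and under the other scalings 2 to 4, 2 to 5, 2 to 3 and 2 to 3 up and 2 to 3, 2 to 3, 5 and 2 to 3 down. The shares were 2.5%, 2.5%, 6.25% and 5% up, beside 3.78%, 3.57%, 10.6% and 12.5% of all expressed genes, and 3.75%, 5%, 6.25% and 5% down, beside 13.4%, 18.8%, 12.8% and 8.24%. In NIH3T3 cells 1 was up with 18 down at 2 h, and 5 were up with 22 down at 7 h, with medians of -0.19 and -0.28. Under the other scalings 2 or 3 were up and 8 or 9 down at 2 h, and 4 or 5 up and 20 to 24 down at 7 h. The shares up were 1.28% and 6.41%, beside 12% and 16.7% of all expressed genes, and the shares down 23.1% and 28.2%, beside 18.2% and 20.1%. In the lists that follow, TMM and DESeq2 factors shift every gene from its value in counts per library total by -0.10 and -0.11 in WT MEFs at 8 h, by -0.09 and -0.08 in PERK -/- MEFs at 8 h and by 0.09 and 0.12 in NIH3T3 cells at 7 h, so medians of that size depend on the scaling. The highest and lowest changes are among genes with at least 100 counts in both libraries.

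The origin recognition complex, the platform on which licensing starts, had a median log2 change of -0.18 in WT MEFs at 8 h, 0.18 in PERK -/- MEFs at 8 h (below 0 under all 3 other scalings) and -0.15 in NIH3T3 cells at 7 h. Orc6, its most translated gene with a mean of 132 TPM, had -0.62 in WT and -0.32 in PERK -/- MEFs. Orc2 was lowest in WT MEFs at -0.84, and Orc1 highest at 0.16. Orc5 in PERK -/- MEFs was highest at 0.45, and in NIH3T3 cells Orc3 was at 1.301 and Orc1 at -0.79. At 1 and 2 h the median of the list was 0.42 and 0.35 in PERK -/- MEFs, above 0 under every scaling, with 6 of 6 genes up. In WT MEFs it was -0.19 and 0.044 at these times, the latter below 0 with TMM or DESeq2 factors.

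Among the other MCM-related proteins, Mcmbp, which binds free MCM subunits, was the most translated with a mean of 60.7 TPM. It had 0.68 in WT MEFs at 8 h, 0.11 in PERK -/- MEFs and -0.14 in NIH3T3 cells at 7 h. Mcm9, a paralogue with a role in repair, had -0.02 in WT MEFs with a sign that turned under the 3 other scalings. Mcm10, which acts at the firing of origins, had 0.0057 in PERK -/- MEFs, also with a sign that turned, and 0.14 in NIH3T3 cells. The medians of the 4 genes were 0.06, -0.21 and -0.20.

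The firing factors, which turn the loaded ring into the active helicase, had medians of -0.11 in WT MEFs at 8 h, 0.04 in PERK -/- MEFs at 8 h (below 0 with TMM or DESeq2 factors) and -0.28 in NIH3T3 cells at 7 h. Recql4 was the highest in WT MEFs: it went from 5.45 TPM in the control to 21.0 at 8 h, a log2 change of 1.95, and was at -0.98 in NIH3T3 cells. Dbf4, the activator of the Cdc7 kinase, was the lowest in both genotypes with -1.02 in WT and -0.38 in PERK -/- MEFs, and was at -1.26 in NIH3T3 cells. Ticrr was highest in PERK -/- MEFs at 0.53, and in NIH3T3 cells Gins3 was highest at 0.69 and Topbp1 lowest at -1.31. Gins4 was the most translated with a mean of 68.9 TPM.

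Of the 4 fork protection genes, Timeless had 0.61 in WT MEFs at 8 h and -0.66 in NIH3T3 cells at 7 h, and Tipin, its partner and the most translated with a mean of 69.6 TPM, had -0.51 in WT and 0.18 in PERK -/- MEFs. Clspn was lowest in PERK -/- MEFs at -0.16 and Wdhd1 highest in NIH3T3 cells at -0.13. Their medians were -0.12, 0.05 and -0.36, the middle value turning below 0 with TMM or DESeq2 factors.

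The replicative polymerases and primase had medians of 0.21 in WT MEFs at 8 h, 0.06 in PERK -/- MEFs at 8 h (below 0 with TMM or DESeq2 factors) and -0.29 in NIH3T3 cells at 7 h. Pold1, the catalytic subunit of the lagging-strand polymerase delta, had 1.10 in WT MEFs, from 15.9 to 33.98 TPM, and -1.34 in NIH3T3 cells. Pola1 was lowest in WT MEFs at -0.34, and in PERK -/- MEFs Prim2 was highest at 0.64. Pole4, the most translated with a mean of 135 TPM, was lowest in PERK -/- MEFs at -0.25, a sign that turned with 1 scaling, and Pole was highest in NIH3T3 cells at 0.33.

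The clamp loaders, which open Pcna and place it on DNA, had medians of -0.08, -0.02 and -0.23 in the same 3 comparisons, the middle one at -0.17 in counts per library total, -0.25 with TMM and -0.24 with DESeq2 factors. Chtf18 was highest in WT MEFs at 0.38 and in PERK -/- MEFs at 0.22, Rfc1 lowest in WT MEFs at -0.50 and Dscc1 lowest in PERK -/- MEFs at -0.31. In NIH3T3 cells Rfc4 was highest at 0.15 and Rfc2 lowest at -1.23. Rfc3 was the most translated with a mean of 80.6 TPM.

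Lagging-strand and single-strand binding proteins had medians of 0.38 in WT MEFs at 8 h, 0.17 in PERK -/- MEFs at 8 h and -0.47 in NIH3T3 cells at 7 h. Rpa2 was highest in both genotypes with 0.47 and 0.79, and Rpa3, the smallest subunit of the same single-strand binding complex, was lowest in all 3 with -0.79, -0.39 and -1.15. Rpa1 was the most translated with a mean of 137 TPM. Rnaseh2a was highest in NIH3T3 cells at 0.14.

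The nucleotide supply enzymes had medians of -0.20 in WT MEFs at 8 h, -0.21 in PERK -/- MEFs at 8 h and -0.35 in NIH3T3 cells at 7 h. Rrm2, a subunit of ribonucleotide reductase, was the most translated with a mean of 330.2 TPM. Tk1 was lowest in NIH3T3 cells with -1.40. Tyms was highest in WT MEFs at 0.09, a sign that turned with TMM or DESeq2 factors, and Rrm1 highest in PERK -/- MEFs at 0.10. At 1 h the median of the list was 0.28 in WT and 0.15 in PERK -/- MEFs, above 0 under every scaling. At 2 h it was 0.12 in WT, below 0 with TMM or DESeq2 factors, and 0.15 in PERK -/- MEFs.

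The genes that degrade Cdt1 and geminin had medians of 0.33 in WT MEFs at 8 h, 0.15 in PERK -/- MEFs at 8 h and -0.39 in NIH3T3 cells at 7 h. Ddb1, the adaptor of the Cul4 ligase, was the most translated with a mean of 426 TPM. Fzr1, a coactivator of the anaphase-promoting complex, was highest in WT MEFs with 0.69 and lowest in NIH3T3 cells with -0.78. Cul4b was lowest in WT MEFs with -0.78. Dtl, which directs the Cul4 ligase to Cdt1, was highest in PERK -/- MEFs at 0.23, and Cul4a was lowest there at -0.09 and highest in NIH3T3 cells at -0.08, above 0 with TMM or DESeq2 factors.

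The E2F and pocket proteins, which control transcription of replication genes, had medians of -0.30 in WT MEFs at 8 h, 0.09 in PERK -/- MEFs at 8 h and -0.17 in NIH3T3 cells at 7 h. The repressor E2f8 was lowest in WT MEFs with -1.20 and the repressor E2f7 highest with 0.19. Rbl2 was highest in PERK -/- MEFs at 0.45 and E2f4 lowest at -0.26. Tfdp1, the dimer partner of E2F factors, was the most translated with a mean of 78.3 TPM and was lowest in NIH3T3 cells at -1.22, where E2f3 was highest at 0.20.

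**Figure D4:**
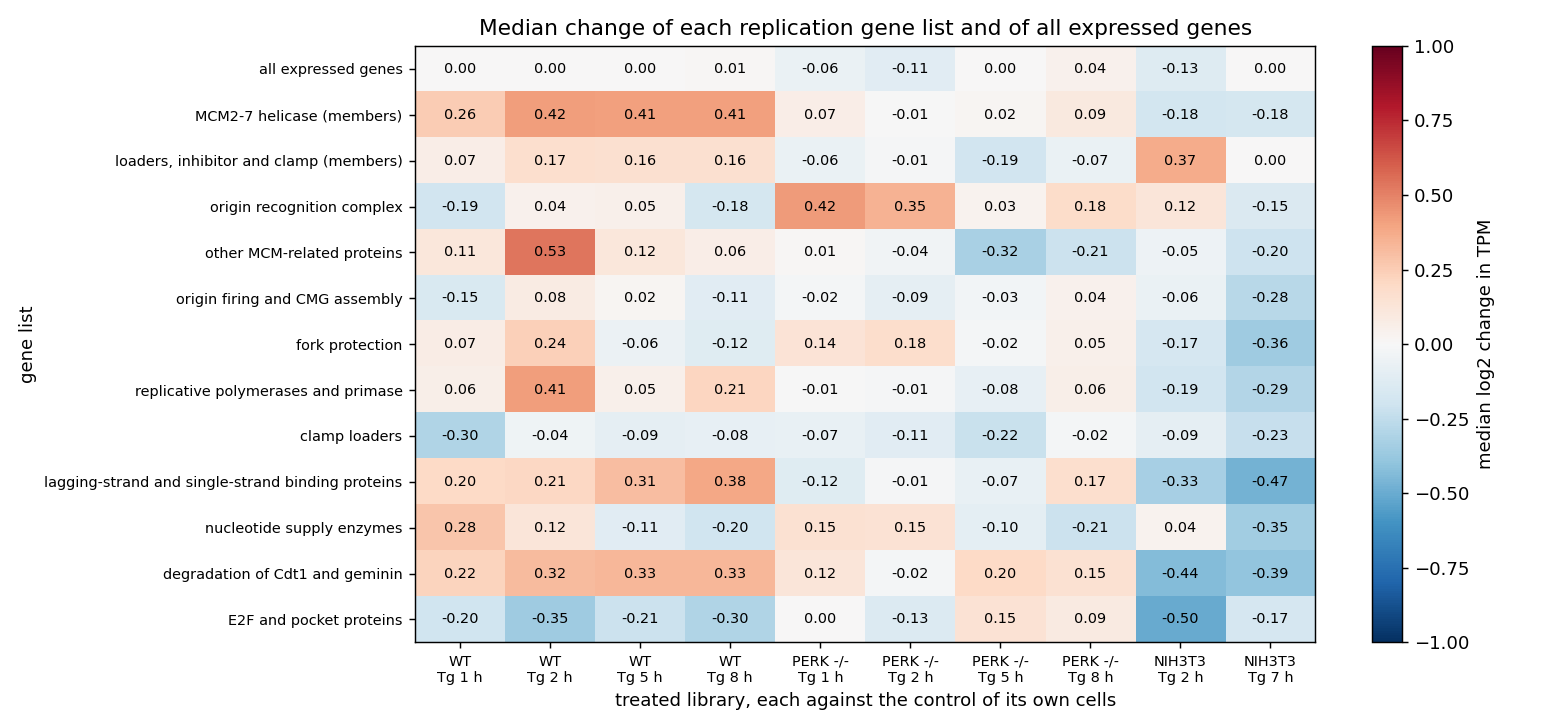
Median log2 change in TPM of each list of replication genes and of all expressed genes (vertical axis) in each treated library (horizontal axis), with the value in each cell of the map. In WT MEFs at 8 h the MCM2-7 helicase is at 0.41 and the E2F and pocket proteins at -0.30, beside 0.0092 for all expressed genes; 4 of the other 10 lists in PERK -/- MEFs at 8 h turn sign under another scaling.

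The genes whose levels ran most like those of the helicase were sought over the 10 MEF libraries, by the Pearson correlation of log2 TPM with the mean of the 6 subunits among 4136 genes with enough counts in each library. The 10 highest were Sash1 (0.96), Kdm5b (0.96), Pola2 (0.96), Hist1h4d (0.96), Herpud1 (0.95), Bag5 (0.95), Itfg2 (0.95), Adnp2 (0.95), Fpgs (0.95) and Shmt2 (0.95). The libraries share controls and fall into treated WT against the rest, so this is a description with no test. Pola2, a subunit of polymerase alpha-primase, was at 40.7 TPM in the WT control and 65.35 at 8 h, and at 45.2 and 49.95 TPM in PERK -/- MEFs. Herpud1, a gene of ER-associated degradation, went from 25.6 to 535 TPM in WT MEFs, so a like pattern does not mean a like size of change.

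Among the members themselves, Cdc6 (0.95) and Cdt1 (0.92) ran with the helicase mean, Pcna (-0.80) and Gmnn (-0.99) ran against it, and Mcm6, although part of the mean, was at -0.45. Gmnn was thus the closest mirror image among the 10 genes.

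GC content moved with the changes and was examined as a property of the coding sequence. The median over expressed genes was 52.8% in MEFs, with a value for 96.1% of them, and 52.6% in NIH3T3 cells, with a value for 95.7%. Cdt1 has the highest GC content of the 10 genes (62.5%) and Gmnn the lowest (46.1%), with Pcna at 46.7% and Mcm2 at 56.7%. In WT MEFs at 8 h a smooth trend of the change on GC content stood at 0.46 for the GC content of Cdt1 and at -0.21 for that of Gmnn. The trend ran the other way in PERK -/- MEFs at 2 h, with -0.43 for Cdt1 and 0.07 for Gmnn.

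With this trend removed, an alternative chosen after seeing the data, Cdt1 in WT MEFs at 8 h went from 1.65 to 1.19, Mcm2 from 0.80 to 0.55, Gmnn from -0.64 to -0.42 and Pcna from -0.27 to -0.08. The median of the 6 subunits went from 0.41 to 0.43. In PERK -/- MEFs at 2 h Cdt1 went from -0.72 to -0.40. The sign of every member in WT MEFs stayed, and the part of GC content in these changes was not tested.

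**Figure D5:**
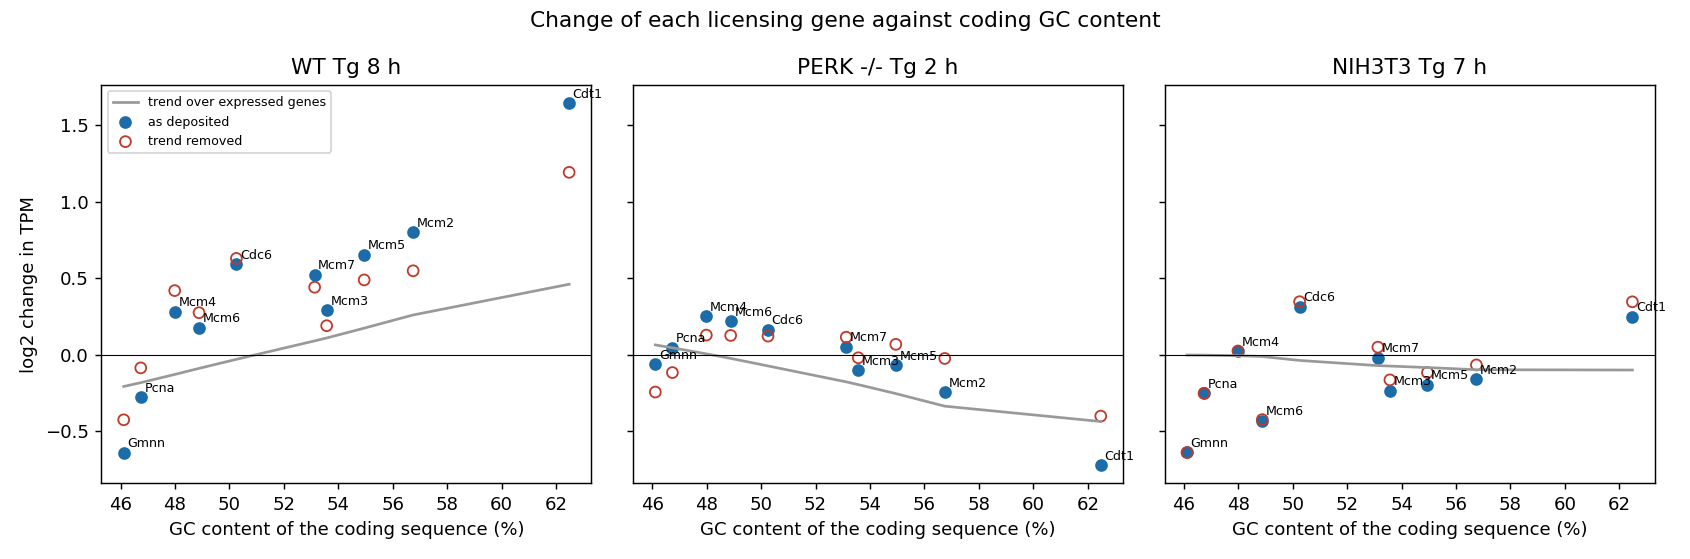
Log2 change in TPM (vertical axis) of each of the 10 genes against the GC content of its coding sequence (percent, horizontal axis) in WT MEFs at 8 h, PERK -/- MEFs at 2 h and NIH3T3 cells at 7 h. Filled points are as deposited, open points have the trend over expressed genes (grey line, drawn at the 10 genes) removed; Cdt1, with 62.5% GC, goes from 1.65 to 1.19 in WT MEFs at 8 h.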

How the data were processed

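Footprints between 22 and 34 nt were used by the authors. Reads of rRNA and tRNA were filtered out with STAR, and Bowtie2 then placed the remaining reads on mm10 coding sequences from RefSeq, each shortened by 30 nt at both ends, without transcripts below 100 nt, for RSEM. The versions are not given in the sources used here. The authors deposited expected counts, rounded per gene and unscaled. The deposited TPM are scaled within each library. Genes averaging 2 TPM or more were kept, lower TPM than 4 was set to 4, and each treated library was compared with its own control. Having 1 library for each condition, conditions were not tested against each other. The 95% intervals are exact conditional Clopper-Pearson intervals of expected counts per library total, and Wald intervals for the difference between genotypes. They rest on between 79 and 10071 counts per gene.

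Named are the 10 members, Eif2ak3, the markers, and in each other list the gene with the highest mean TPM and those with the highest and lowest change in WT and PERK -/- MEFs at 8 h and in NIH3T3 cells at 7 h, among genes with at least 100 counts in both libraries, except where a gene is not reported here. The 10 most alike genes needed 100 counts in each MEF library. Values of Mki67, Top2a, Pola2 and Herpud1, and of Orc6, Recql4, Timeless, Pold1 and Dbf4 outside the comparison that named them, were picked after they were seen. The members and lists were chosen with earlier results of these data known.

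Alternatives were expected counts per library total, TMM factors, DESeq2 size factors, thinning to the smallest library, a floor of 1 TPM, a pseudocount of 1 TPM, a mean TPM of at least 5, no filter, folds of 1.5 and 3 and, chosen after seeing the data, removal of a lowess trend (fraction 0.3) on coding GC content, and TMM and DESeq2 factors in the counting intervals. Places and GC content were read from GENCODE (GRCm38). The change and interval functions were run on simulated counts. Tools were Python 3.11.15, with numpy 2.4.6, with pandas 2.3.3, with scipy 1.17.1, with statsmodels 0.14.6 and with matplotlib 3.10.9, besides R 4.3.3 running edgeR 4.0.16 together with DESeq2 1.42.0. Positions of footprints along the genes were left out, since gene tables do not hold them.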

Additional observations from a re-analysis of the deposited data

Results flagged for a closer look

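In 6 cases every treated library of WT MEFs was above its control while every treated library of other cells was below its own. Each value is the mean log2 change in the other cells minus that in WT MEFs. None of these differences was tested, and the treated libraries of each kind of cell share 1 control.

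For Mcm2 the difference was -0.76 in PERK -/- MEFs and -0.89 in NIH3T3 cells, from a mean of 0.63 in WT MEFs. For Mcm3 it was -0.42 in PERK -/- MEFs and -0.49 in NIH3T3 cells, from 0.29 in WT MEFs. With TMM or DESeq2 factors the changes of Mcm2 at 1 h and of Mcm3 at 1 and 2 h in PERK -/- MEFs were above 0, so there the pattern is lost.

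For Mcm5 the difference in NIH3T3 cells was -0.80, from 0.61 in WT MEFs, and for Mcm6 it was -0.52, from 0.13. The NIH3T3 cells received 200 nM Tg and the MEFs 1 uM, and the times averaged differ. Dose, time and kind of cell thus cannot be told apart.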

How the results depend on the processing

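No change of at least 1.5-fold in the 10 genes turned sign under an alternative, but smaller ones did. Among the 10 genes 4, 3, 1 and 2 turned under another scaling in PERK -/- MEFs at 1, 2, 5 and 8 h, and 1 at each NIH3T3 time. The median of Mcm2 to Mcm7 in PERK -/- MEFs at 2 h turned too, as did the difference between genotypes of Pcna with the GC trend removed, of Mcm7 at 1 h with TMM factors, and of Mcm4 and Mcm6 at 1 and 2 h under some alternatives. The direction of each of the 10 genes in WT MEFs held under every alternative, as did Cdt1 past 2-fold at 2, 5 and 8 h. Membership past 1.5-fold was less stable: in WT MEFs at 5 and 8 h Mcm5 and Cdc6 fell short with TMM or DESeq2 factors, and Cdc6 at 8 h also with a pseudocount of 1 TPM. A mean TPM of at least 5 moved no value. Without a filter no value of the 10 genes moved, but the median of all genes became 0 in PERK -/- MEFs and NIH3T3 cells at 2 h. A floor of 1 TPM or a pseudocount of 1 TPM moved none of the 10 genes, and 84 of 190 values moved with DESeq2 size factors, 83 with TMM factors, 70 with the GC trend removed and 16 with expected counts per library total. Scaling moved the median of all expressed genes by over 0.1 in PERK -/- MEFs at 2 h (0.11 with TMM or DESeq2 factors) and in NIH3T3 cells at 2 h (0.10 with counts per library total, 0.11 with TMM and 0.13 with DESeq2 factors). Relative to all expressed genes, the median of Mcm2 to Mcm7 in PERK -/- MEFs at 2 h was 0.10 with TPM, 0.21 with TMM and 0.19 with DESeq2 factors, and in NIH3T3 cells at 2 h -0.050, -0.035 and -0.025. Leaving out a replicate could not be run because each condition is 1 library, and no test pairing the genotypes by time was run. Depth limits Gmnn most, with 79 counts in NIH3T3 cells at 2 h. The values that moved by at least the reach of their counting interval on either side, and the gene counts that changed by over 1.5 times, follow; the cause was not tested.

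With TMM factors, WT MEFs at 1 h gave a log2 change of -0.20 for Pcna. At 5 h, WT MEFs gave 0.65 for Mcm2, 0.16 for Mcm3, 0.23 for Mcm4, 0.55 for Mcm5, 0.40 for Mcm7 and -0.41 for Pcna. At 8 h, WT MEFs gave 0.71 for Mcm2, 0.20 for Mcm3, 0.19 for Mcm4, 0.56 for Mcm5, 0.10 for Mcm6, 0.43 for Mcm7 and -0.37 for Pcna. At 1 h, PERK -/- MEFs gave 0.049 for Mcm2, 0.071 for Mcm3, 0.37 for Mcm4, 0.19 for Mcm5, 0.26 for Mcm6, 0.23 for Mcm7 and 0.10 for Pcna. At 2 h, PERK -/- MEFs gave -0.022 for Mcm2, 0.12 for Mcm3, 0.47 for Mcm4, 0.15 for Mcm5, 0.43 for Mcm6, 0.28 for Mcm7, 0.41 for Cdc6, -0.50 for Cdt1, 0.16 for Gmnn and 0.27 for Pcna. At 8 h, PERK -/- MEFs gave -0.20 for Mcm2, -0.23 for Mcm3, 0.061 for Mcm4, -0.027 for Mcm5, 0.028 for Mcm6, 0.11 for Mcm7 and -0.26 for Pcna. At 2 h, NIH3T3 cells gave -0.23 for Mcm2, -0.057 for Mcm3, 0.18 for Mcm4, -0.061 for Mcm5, -0.22 for Mcm6, 0.22 for Mcm7 and 0.32 for Pcna. At 7 h, NIH3T3 cells gave -0.072 for Mcm2, -0.15 for Mcm3, 0.11 for Mcm4, 0.088 for Mcm7 and -0.16 for Pcna. The median of Mcm2 to Mcm7 with TMM was 0.32 at 5 h and 0.31 at 8 h in WT MEFs, 0.21 at 1 h, 0.21 at 2 h and 0.00063 at 8 h in PERK -/- MEFs and -0.059 at 2 h and -0.090 at 7 h in NIH3T3 cells. Under TMM, PERK -/- minus WT at 1 h was -0.25 for Mcm2, -0.095 for Mcm3, 0.28 for Mcm4, -0.22 for Mcm5, 0.22 for Mcm6, 0.037 for Mcm7 and 0.30 for Pcna. Under TMM, PERK -/- minus WT at 2 h was -0.56 for Mcm2, -0.16 for Mcm3, 0.23 for Mcm4, -0.44 for Mcm5, 0.40 for Mcm6, -0.12 for Mcm7, -0.034 for Cdc6, -2.30 for Cdt1 and 0.52 for Pcna. Under TMM, PERK -/- minus WT at 5 h was -0.70 for Mcm2, -0.39 for Mcm3, -0.063 for Mcm4, -0.31 for Mcm7 and 0.16 for Pcna. Expressed genes going up past 2-fold numbered 120 and 138 at 1 and 2 h in PERK -/- MEFs. Past 2-fold downwards the expressed genes numbered 214 and 305 at 1 and 2 h in PERK -/- MEFs and 232 at 2 h in NIH3T3 cells.

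With DESeq2 size factors, WT MEFs at 5 h gave log2 changes of 0.65 for Mcm2, 0.16 for Mcm3, 0.23 for Mcm4, 0.55 for Mcm5, 0.40 for Mcm7 and -0.41 for Pcna. At 8 h, WT MEFs gave 0.70 for Mcm2, 0.19 for Mcm3, 0.18 for Mcm4, 0.55 for Mcm5, 0.086 for Mcm6, 0.42 for Mcm7 and -0.38 for Pcna. At 1 h, PERK -/- MEFs gave 0.027 for Mcm2, 0.049 for Mcm3, 0.35 for Mcm4, 0.16 for Mcm5, 0.24 for Mcm6, 0.20 for Mcm7 and 0.076 for Pcna. At 2 h, PERK -/- MEFs gave -0.050 for Mcm2, 0.095 for Mcm3, 0.44 for Mcm4, 0.12 for Mcm5, 0.41 for Mcm6, 0.25 for Mcm7, 0.38 for Cdc6, -0.53 for Cdt1, 0.13 for Gmnn and 0.24 for Pcna. At 8 h, PERK -/- MEFs gave -0.19 for Mcm2, -0.22 for Mcm3, 0.071 for Mcm4, 0.038 for Mcm6, 0.12 for Mcm7 and -0.25 for Pcna. At 2 h, NIH3T3 cells gave -0.19 for Mcm2, -0.023 for Mcm3, 0.21 for Mcm4, -0.027 for Mcm5, -0.19 for Mcm6, 0.25 for Mcm7, 0.69 for Cdt1 and 0.36 for Pcna. At 7 h, NIH3T3 cells gave -0.034 for Mcm2, -0.11 for Mcm3, 0.15 for Mcm4, -0.070 for Mcm5, -0.31 for Mcm6, 0.13 for Mcm7, 0.38 for Cdt1 and -0.12 for Pcna. The median of Mcm2 to Mcm7 with DESeq2 factors was 0.32 at 5 h and 0.30 at 8 h in WT MEFs, 0.18 at 1 h, 0.19 at 2 h and 0.010 at 8 h in PERK -/- MEFs and -0.025 at 2 h and -0.052 at 7 h in NIH3T3 cells. Under DESeq2 factors, PERK -/- minus WT at 1 h was -0.33 for Mcm2, -0.17 for Mcm3, 0.21 for Mcm4, -0.30 for Mcm5, 0.15 for Mcm6, -0.040 for Mcm7 and 0.22 for Pcna. Under DESeq2 factors, PERK -/- minus WT at 2 h was -0.61 for Mcm2, -0.21 for Mcm3, 0.19 for Mcm4, -0.48 for Mcm5, 0.35 for Mcm6, -0.16 for Mcm7, -0.081 for Cdc6 and 0.47 for Pcna. Under DESeq2 factors, PERK -/- minus WT at 5 h was -0.69 for Mcm2, -0.38 for Mcm3, -0.055 for Mcm4, -0.31 for Mcm7 and 0.17 for Pcna. The expressed genes past 2-fold upwards numbered 114 and 121 at 1 and 2 h in PERK -/- MEFs. Expressed genes going down past 2-fold numbered 233 and 329 at 1 and 2 h in PERK -/- MEFs and 205 at 2 h in NIH3T3 cells.

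With expected counts per library total, PERK -/- MEFs at 2 h gave log2 changes of -0.17 for Mcm2, -0.021 for Mcm3, 0.33 for Mcm4, 0.29 for Mcm6, 0.13 for Mcm7 and 0.12 for Pcna. At 2 h, NIH3T3 cells gave -0.23 for Mcm2, -0.060 for Mcm3, 0.18 for Mcm4, -0.064 for Mcm5, 0.22 for Mcm7 and 0.32 for Pcna. The median of Mcm2 to Mcm7 with counts per library total was 0.070 at 2 h in PERK -/- MEFs and -0.062 at 2 h in NIH3T3 cells. Members of the 10 past 2-fold upwards numbered 1 at 1 h in WT MEFs. Past 2-fold downwards the expressed genes numbered 237 at 2 h in NIH3T3 cells.

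With the GC trend removed, WT MEFs at 1 h gave log2 changes of 0.29 for Mcm2 and -0.0062 for Pcna. At 2 h, WT MEFs gave 0.43 for Mcm2, 0.43 for Mcm4, 0.55 for Mcm5, 1.54 for Cdt1 and -0.011 for Pcna. At 5 h, WT MEFs gave 0.52 for Mcm2, 0.16 for Mcm3, 0.44 for Mcm4, 0.50 for Mcm5, 0.42 for Mcm7, 1.07 for Cdt1 and -0.15 for Pcna. At 8 h, WT MEFs gave 0.55 for Mcm2, 0.19 for Mcm3, 0.42 for Mcm4, 0.49 for Mcm5, 0.28 for Mcm6, 0.44 for Mcm7, 1.19 for Cdt1, -0.42 for Gmnn and -0.084 for Pcna. At 1 h, PERK -/- MEFs gave 0.063 for Mcm2, 0.15 for Mcm4, 0.15 for Mcm5, -0.47 for Cdt1 and -0.14 for Pcna. At 2 h, PERK -/- MEFs gave -0.023 for Mcm2, -0.018 for Mcm3, 0.13 for Mcm4, 0.070 for Mcm5, 0.13 for Mcm6, -0.40 for Cdt1, -0.24 for Gmnn and -0.11 for Pcna. At 7 h, NIH3T3 cells gave -0.065 for Mcm2. The median of Mcm2 to Mcm7 with the trend removed was 0.093 at 2 h in PERK -/- MEFs and -0.090 at 7 h in NIH3T3 cells. Under the trend removed, PERK -/- minus WT at 1 h was -0.22 for Mcm2, -0.090 for Mcm4, -0.28 for Mcm5, -1.27 for Cdt1 and -0.14 for Pcna. Under the trend removed, PERK -/- minus WT at 2 h was -0.46 for Mcm2, -0.31 for Mcm3, -0.30 for Mcm4, -0.48 for Mcm5, -0.053 for Mcm6, -0.30 for Mcm7, -1.94 for Cdt1, 0.16 for Gmnn and -0.10 for Pcna. Under the trend removed, PERK -/- minus WT at 5 h was -0.55 for Mcm2, -0.39 for Mcm3, -0.30 for Mcm4, -0.37 for Mcm5, -1.36 for Cdt1 and -0.13 for Pcna. Under the trend removed, PERK -/- minus WT at 8 h was -0.69 for Mcm2, -0.30 for Mcm4, -0.45 for Mcm5, -0.19 for Mcm6, -1.11 for Cdt1 and -0.11 for Pcna. The expressed genes past 2-fold upwards numbered 389, 378 and 402 at 2, 5 and 8 h in WT MEFs. Expressed genes going down past 2-fold numbered 217 and 339 at 1 and 2 h in PERK -/- MEFs.

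With counts thinned to the smallest library, WT MEFs at 1 h gave a log2 change of 0.26 for Mcm6. At 2 h, WT MEFs gave 0.25 for Mcm6. At 5 h, WT MEFs gave 0.31 for Mcm6. At 8 h, WT MEFs gave 0.29 for Mcm6, 0.72 for Cdc6 and -0.37 for Pcna. At 1 h, PERK -/- MEFs gave -0.95 for Cdt1. At 2 h, PERK -/- MEFs gave -0.0041 for Mcm3 and -0.0084 for Pcna. At 5 h, PERK -/- MEFs gave -0.62 for Cdt1. At 8 h, PERK -/- MEFs gave -0.012 for Mcm3. At 7 h, NIH3T3 cells gave -0.056 for Mcm2 and -0.091 for Mcm4. Under thinned counts, PERK -/- minus WT at 1 h was -0.12 for Mcm6 and -2.08 for Cdt1. Under thinned counts, PERK -/- minus WT at 2 h was -0.34 for Mcm3 and -0.063 for Mcm6. Under thinned counts, PERK -/- minus WT at 5 h was -0.37 for Mcm3, -0.37 for Mcm6 and -2.10 for Cdt1. Under thinned counts, PERK -/- minus WT at 8 h was -0.29 for Mcm3, -0.23 for Mcm6 and -0.82 for Cdc6. Members of the 10 past 2-fold upwards numbered 1 at 1 h in WT MEFs. Past 2-fold upwards the expressed genes numbered 141 and 107 at 1 and 2 h in PERK -/- MEFs. The ratio of Gmnn to Cdt1 was 0.406 in the NIH3T3 library at 7 h. The ratio of the highest to the lowest subunit was 1.53 in the PERK -/- library at 2 h and 1.38 in the NIH3T3 control.

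With a floor of 1 TPM, the expressed genes past 2-fold upwards numbered 821, 887 and 940 at 1, 2 and 5 h in WT MEFs and 163, 144 and 551 at 1, 2 and 8 h in PERK -/- MEFs. The expressed genes past 2-fold downwards numbered 363 at 1 h in WT MEFs, 631, 1011, 883 and 449 at 1, 2, 5 and 8 h in PERK -/- MEFs and 1325 at 7 h in NIH3T3 cells.

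With a pseudocount of 1 TPM, the expressed genes past 2-fold upwards numbered 104 at 2 h in PERK -/- MEFs. Expressed genes going down past 2-fold numbered 754 at 5 h in PERK -/- MEFs.

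At 1.5-fold, members of the 10 past 1.5-fold upwards numbered 1, 3, 4 and 4 at 1, 2, 5 and 8 h in WT MEFs. Members of the 10 past 1.5-fold downwards numbered 1 and 1 at 5 and 8 h in WT MEFs, 1 and 1 at 1 and 2 h in PERK -/- MEFs and 1 at 7 h in NIH3T3 cells. Past 1.5-fold upwards the expressed genes numbered 1340, 1593, 1746 and 1861 at 1, 2, 5 and 8 h in WT MEFs, 394, 372, 1102 and 1306 at 1, 2, 5 and 8 h in PERK -/- MEFs and 1210 and 1690 at 2 and 7 h in NIH3T3 cells. The expressed genes past 1.5-fold downwards numbered 1061, 1281, 1211 and 1253 at 1, 2, 5 and 8 h in WT MEFs, 1397, 1963, 1333 and 860 at 1, 2, 5 and 8 h in PERK -/- MEFs and 1840 and 2034 at 2 and 7 h in NIH3T3 cells.

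At 3-fold, members of the 10 past 3-fold upwards numbered 0 at 5 h in WT MEFs and 0 at 2 h in NIH3T3 cells. Expressed genes going up past 3-fold numbered 112, 149, 160 and 168 at 1, 2, 5 and 8 h in WT MEFs, 13, 11, 55 and 50 at 1, 2, 5 and 8 h in PERK -/- MEFs and 191 and 203 at 2 and 7 h in NIH3T3 cells. Past 3-fold downwards the expressed genes numbered 23, 66, 64 and 64 at 1, 2, 5 and 8 h in WT MEFs, 52, 96, 148 and 70 at 1, 2, 5 and 8 h in PERK -/- MEFs and 26 and 198 at 2 and 7 h in NIH3T3 cells.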
